A study of Mus musculus with 2 samples.

Results

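Sarcomere genes encode the filaments and anchoring proteins of the contractile unit of striated muscle. The set described here holds 36 genes of the 55487 in the count matrices. They were taken by gene symbol from a list that covers the thick filament, the thin filament, the Z disc, the M band, titin, desmin and muscle creatine kinase. All 36 symbols matched 1 row each. By isoform, 5 were grouped as developmental (Actc1, Myh3, Myh8, Myl4, Tnnt2), 8 as slow, 11 as fast and 12 as shared between fibre types or without such a split. The slow group held Myh7, Myl2, Myl3, Mybpc1, Tnnt1, Tnni1, Tnnc1 and Myoz2, and the fast group Actn3, Myh1, Myh2, Myh4, Myl1, Mylpf, Mybpc2, Tnnt3, Tnni2, Tnnc2 and Myoz1.

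In a sarcomere, myosin heavy chains with their light chains form the thick filament, and actin with tropomyosin and the troponin complex forms the thin filament. Troponin C binds calcium, troponin I holds back the contact of actin and myosin, and troponin T ties the complex to tropomyosin. When muscle regenerates, stem cells that carry Pax7 divide, switch on Myod1 and then Myog, fuse, and build new sarcomeres, first with embryonic, neonatal and cardiac-type isoforms and later with the slow or fast isoforms of adult fibres.

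Single-cell RNA-seq was made from injured tibialis anterior of mice aged 8 to 12 weeks, as 2 libraries: 1 wild type (WT) and 1 conditional knockout (KO) of Setdb1, a histone methyltransferase. The cells were digested out of the muscle, stained with Hoechst and propidium iodide, sorted, and made into libraries with 10x Genomics 3' v2 chemistry. The title places the study in muscle stem cells during regeneration. What drives the Cre, how and when the muscle was injured, and how many animals made up a library are points the sources used here do not give. With 1 library per group there is no test of any difference: every comparison is between these libraries. Brackets hold 95% intervals for counting error alone.

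The WT library held 121703522 UMIs (unique molecular identifiers, which count captured RNA molecules) and the KO library 138667420. After filtering, 6314 WT and 5730 KO cells remained, with medians of 12122.5 and 13015.5 UMIs, and 6 barcodes occurred in both libraries, none of them in a myogenic cell. Myogenic-like cells, those that cluster by Pax7, Myod1, Myog and other muscle precursor markers, numbered 682 in WT and 372 in KO. They were divided into 3 states from subclusters that were built without any sarcomere gene. The stem state held 489 WT cells (71.7%) and 142 KO cells (38.2%), the cycling state 131 (19.2%) and 137 (36.8%), and the Myog state 43 (6.30%) and 63 (16.9%). The remaining 19 and 30 cells, in a subcluster led by genes of other cell types such as Fabp4 and C1qa, had no state. These shares stand beside the sort and beside UMI minimums per cell of 5146 in WT and 6297 in KO. Levels are given as CPM, the UMIs of a gene scaled by all UMIs of the state's cells.

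Setdb1 itself was lower in KO in every state. It was 15.5 CPM in WT and 8.57 CPM in KO in the stem state (KO/WT ratio 0.551 [0.334 to 0.870]), 23.2 and 9.71 CPM in the cycling state (0.419 [0.276 to 0.625]), and 19.0 and 5.44 CPM in the Myog state (0.287 [0.121 to 0.636]). Which exons the deletion removes is unknown here, and 3' tags read only the transcript's end, so these levels check the labels in part. Stem cells of the libraries also came from different subclusters. Of the 8 stem subclusters, 5 had more than 3 WT cells per KO cell and held 81.8% of the WT stem cells and 18.3% of the KO ones. The other 3 (numbers 6, 7 and 8, led by Gsta4, Spp1 and Bmp4) held 18.2% and 81.7%. Subcluster 6 (26 WT and 45 KO cells) scored below the mean of myogenic-like cells for the markers of every state. It was named stem because that score, -0.236, was above its Myog (-0.26) and cycling (-0.309) scores. In the first 5 subclusters KO had 26 cells, with 1 in subcluster 0. Tallies over subclusters below rest in part on these few cells, and subclusters are no replicates. Myod1, the activation factor, was 31.2 CPM in WT and 104 CPM in KO stem-state cells, and Myog 27.3 and 84.1 CPM.

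Sequences upstream of 6 genes are shown because their levels carry the results that follow: Tnnt2, Tnni1 and Des, which were higher in KO stem and cycling cells, and Acta1, Mylpf and Myh3, which mark the step into the Myog state. They come from RefSeq (build GRCm38.p6), which gave entries for 30 of the 36 genes (35 start sites, with no entry for Actn3, Tnnt3, Tnni2, Neb, Tcap and Myoz1). Each runs up to the base before the start site, 5′ to 3′ on the gene's strand, and capitals mark 3 motifs on either strand. They are CAGCTG, a form of the E-box that myogenic factors bind, CATTCC, the core of the element bound by TEAD factors, and TATAAA, a core promoter element. Positions are chr1:135836084-135836333 (+) for Tnnt2, chr1:135799171-135799401 (+) for Tnni1, chr1:75360042-75360291 (+) for Des, chr8:123894776-123895025 (-) for Acta1, chr7:127211358-127211607 (+) for Mylpf and chr11:67078050-67078299 (+) for Myh3. Those of Tnni1 and Mylpf lie inside the span that the GENCODE annotation gives to the gene, and 19 exonic bases were left out of the Tnni1 window.
Tnnt2: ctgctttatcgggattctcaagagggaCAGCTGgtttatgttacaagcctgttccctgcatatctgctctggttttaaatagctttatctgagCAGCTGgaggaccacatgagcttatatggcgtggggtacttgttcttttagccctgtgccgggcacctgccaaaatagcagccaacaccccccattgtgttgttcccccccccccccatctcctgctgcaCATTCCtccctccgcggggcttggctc
Tnni1: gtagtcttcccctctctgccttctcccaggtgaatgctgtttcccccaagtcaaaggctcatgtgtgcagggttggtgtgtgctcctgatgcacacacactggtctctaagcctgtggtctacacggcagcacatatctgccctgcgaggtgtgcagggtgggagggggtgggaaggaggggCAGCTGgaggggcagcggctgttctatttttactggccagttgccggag
Des: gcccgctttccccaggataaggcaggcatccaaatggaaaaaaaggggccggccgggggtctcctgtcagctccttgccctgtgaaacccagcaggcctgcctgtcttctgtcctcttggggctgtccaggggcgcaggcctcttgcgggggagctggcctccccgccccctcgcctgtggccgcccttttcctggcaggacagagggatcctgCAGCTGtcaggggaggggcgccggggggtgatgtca
Acta1: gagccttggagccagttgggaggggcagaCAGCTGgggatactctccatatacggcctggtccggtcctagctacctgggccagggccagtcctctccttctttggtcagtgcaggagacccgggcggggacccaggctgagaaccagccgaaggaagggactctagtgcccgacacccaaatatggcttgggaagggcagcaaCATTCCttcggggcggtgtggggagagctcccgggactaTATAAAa
Mylpf: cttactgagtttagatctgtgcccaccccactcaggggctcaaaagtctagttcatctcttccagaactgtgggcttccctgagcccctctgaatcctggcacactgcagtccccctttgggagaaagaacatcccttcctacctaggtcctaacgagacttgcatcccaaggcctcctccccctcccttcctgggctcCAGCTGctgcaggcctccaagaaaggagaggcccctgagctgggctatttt
Myh3: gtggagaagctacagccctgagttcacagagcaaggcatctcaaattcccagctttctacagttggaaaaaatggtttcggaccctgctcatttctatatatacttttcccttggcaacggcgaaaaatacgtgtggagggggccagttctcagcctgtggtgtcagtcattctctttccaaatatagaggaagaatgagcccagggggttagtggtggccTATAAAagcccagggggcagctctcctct

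CAGCTG occurred on either strand in 14 of the 35 member windows of 250 bases (40%, 13 genes) and in 13% of all 32851 RefSeq mouse windows of that length. CANNTG, the general E-box that contains CAGCTG, occurred in 82.9% of member windows and 66.2% of all. The CArG box, which binds serum response factor, was found in 20% against 1.47%, the MEF2 site in 14.3% against 2.92%, CATTCC in 31.4% against 12.6%, and TATAAA in 25.7% against 12.4%. Of the genes printed, Tnnt2 holds CAGCTG 2 times, at 223 and 157 bases before its start, and Myh3 does not hold it in this window. These are matches of letters only, and binding was not measured here. On the chromosomes, Tnni1 and Tnnt2 lie 25.4 kb apart on chromosome 1, Tnni2 and Tnnt3 lie 54.4 kb apart on chromosome 7, and the 5 myosin heavy chain genes Myh3, Myh2, Myh1, Myh4 and Myh8 lie within 230 kb (chr11:67078300-67308634, GRCm38).

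The sarcomere genes set the Myog state apart from the stem state in both libraries. Together they made up 0.269% of UMIs in WT and 0.402% in KO stem-state cells, 0.303% and 0.377% in cycling cells, and 3.31% and 2.74% in the Myog state. In single cells of the Myog state the share ranged from 0.184% to 13.4% in WT and from 0.253% to 15.4% in KO, with medians of 1.48% and 1.44%. The 4 highest WT cells held 47.3% of the WT sarcomere UMIs of that state and the 6 highest KO cells 42.9%, so a few cells weigh heavily in its sums.

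A gene was called higher or lower when its ratio of CPM + 5 was at least 1.5-fold, and it was measured when both sums together held at least 20 UMIs. In WT, 29 of 30 measured sarcomere genes were higher in the Myog than in the stem state, beside 12.1% of all genes, and 1 (Mybpc1) was lower, beside 21.1%. KO had 26 of 28 higher, beside 9.6% of all genes, and none lower, beside 20.3%. Median log2 ratios were 3.5 and 2.67 (3.62 and 2.78 with genes at 0 in the stem state set at their lower bounds), while the median over all genes was -0.12 in both libraries. Genes with under 20 UMIs in stem cells passed the filter only with their Myog-state UMIs, which favoured a call of higher. In WT these were Actn2, Myh1, Myh3, Myh4, Myh8, Mybph, Tcap, Myoz2 and Ldb3. In KO they were Actn2, Myh1, Myh3, Myh4, Mybph, Myoz2, Ldb3, Myom1 and Ckm. Those without a stem-state UMI, such as Myh8 in WT, had to be higher. All of them are part of the counts and medians above. With the smaller, sarcomere-rich Myog subcluster left out, 17 of 22 measured genes were higher in WT and 1 lower, beside 12.2% and 21.7% of all genes, and 18 of 20 were higher in KO and none lower, beside 9.12% and 17.3%.

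Acta1, the main actin of adult skeletal muscle, was 67.2 CPM in WT stem cells and 4165 CPM in the WT Myog state, and 70.5 and 4539 CPM in KO. Actc1, the actin of heart and developing muscle, was 12.3 and 3879 CPM in the WT stem and Myog states and 9.34 and 1797 CPM in those of KO. Mylpf, the fast regulatory light chain, was 91.6 and 5190 CPM in WT and 183 and 4237 CPM in KO. All 3 were over 20-fold higher in the Myog state of each library. Embryonic myosin Myh3 was 1.55 CPM (13 UMIs) in WT stem cells against 459 CPM, and 2.34 CPM (6 UMIs) in KO stem cells against 363 CPM. Mybph, a myosin-binding protein, had 2 UMIs in WT and none in KO stem cells, which allows up to 1.17 CPM there. It reached 312 and 177 CPM in the Myog state, in KO at least 151-fold higher.

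Other genes were already abundant in stem cells. Des, the intermediate filament that links Z discs, was 611 CPM in WT and 1087 CPM in KO stem-state cells, and 1227 and 1605 CPM in the Myog state. Its Myog to stem ratio was 2.01 [1.89 to 2.13] in WT and 1.48 [1.40 to 1.56] in KO, the latter below the fold of 1.5. Tpm1, a tropomyosin that other cell types also express, was 666 and 2444 CPM in the WT stem and Myog states and 784 and 1925 CPM in those of KO. Mybpc1, slow myosin-binding protein C, was lower in the WT Myog state (40.7 CPM against 69.7), and its 30.5 against 45.2 CPM in KO stayed within the fold. Tnnt1, slow troponin T, was 253 CPM against 947 CPM in the WT Myog state and 372 against 1144 CPM in KO.

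Fewer genes were past the fold between cycling and stem cells. In WT 3 of 22 measured genes (Tnnt3, Tnni2, Tpm1) were higher in cycling than in stem cells, beside 10.8% of all genes, and 4 (Acta1, Actn3, Myl1, Mybpc1) lower, beside 6.53%. In KO none of 19 was higher, beside 10.4%, and Myl1 alone lower, beside 8.45%.

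**Figure D1:**
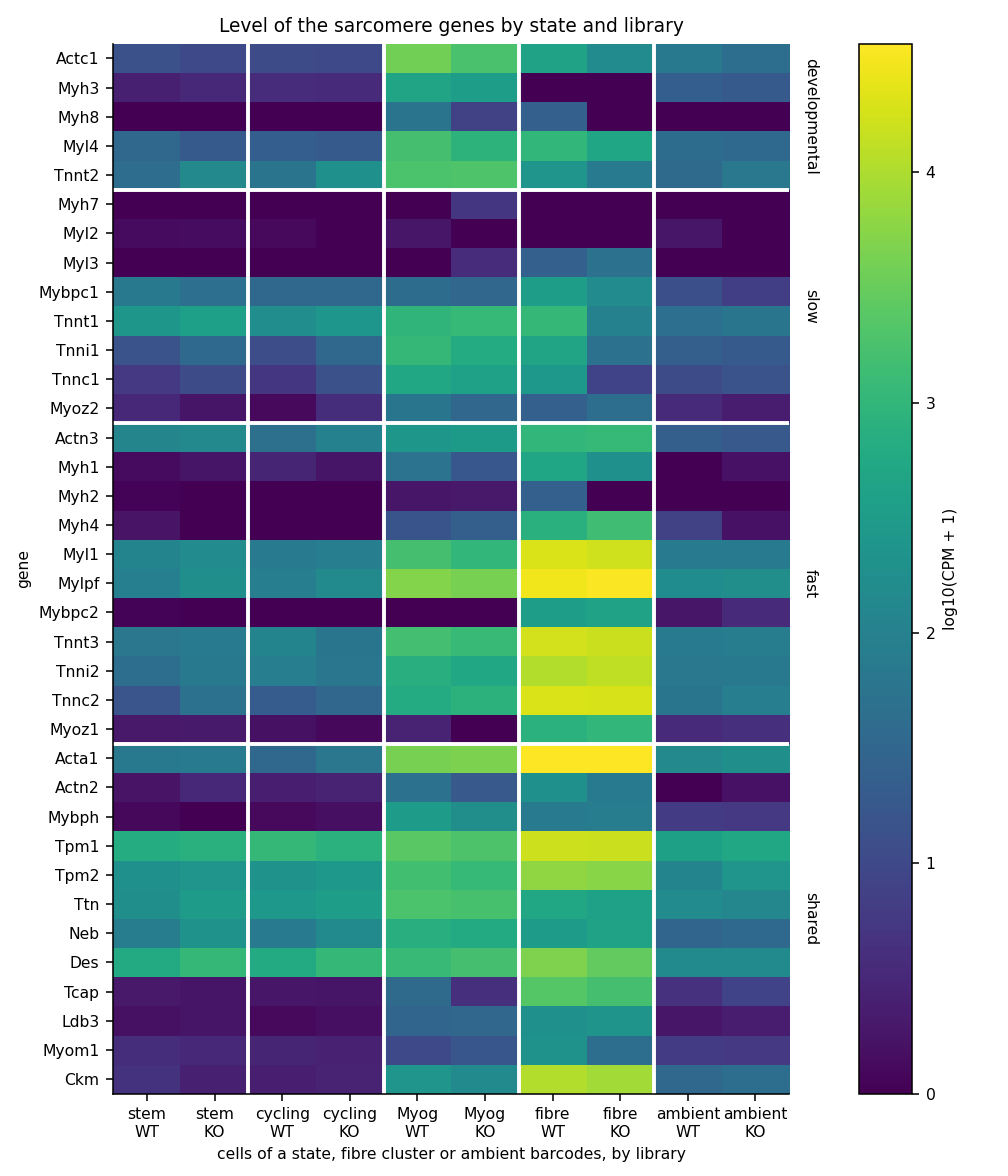
Level of each of the 36 sarcomere genes (rows, grouped by isoform) as log10(CPM + 1) in the stem, cycling and Myog states, in a small cluster of muscle fibre fragments (5 WT and 8 KO cells) and in ambient RNA, for each library. Colour steps up from stem and cycling to Myog in nearly all rows, while Myh3 is dark and Tnnt3, Tnni2 and Tnnc2 are bright in the fibre columns.

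Accounting for every gene, 19 were measured in all 3 states and 6 (Myh2, Myh7, Myl2, Myl3, Mybpc2, Myoz1) in none. Myh7, the slow myosin of adult fibres, had no UMI in any WT state and 8 in the KO Myog state, 5 of them in 1 cell. Mybpc2, the fast myosin-binding protein C, had 1 UMI over all states of both libraries, although it was present in the fibre cluster at 358 CPM in WT and 416 CPM in KO (15 and 58 UMIs). Myoz1, the calsarcin of fast fibres, likewise had at most 9 UMIs in any state and 813 and 1046 CPM in the fibre cluster.

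Developmental isoforms held larger shares of their families in the Myog state than in the fibre cluster. Shares within a family compare tags of different genes, whose capture can differ, so a share is read between states and libraries rather than as a ratio of proteins. Close family members have similar coding sequences, and the sources used here do not say how reads that fit several genes were counted.

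Among myosin heavy chains, Myh3 made up 78.9% [75.5 to 82.0] of the family's 644 UMIs in the WT Myog state and 87.5% [85.0 to 89.8] of 763 in KO. Myh8, the neonatal chain, made up 9.47% and 1.70%, the fast chains Myh1 9.01% and 3.93% and Myh4 2.48% and 5.5%. Myh4 in KO rested on 1 cell with 39 of 42 UMIs, and Myh8 in WT on 1 cell with 44 of 61. In the fibre cluster Myh4 made up 58.9% in WT and 88.4% in KO, and Myh3 had no UMI.

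Actc1 made up 48.2% [47.2 to 49.3] of sarcomeric actin in the WT Myog state and 28.4% [27.5 to 29.2] in KO. In the stem state it was 15.5% [12.8 to 18.5] and 11.7% [7.65 to 16.9], whose intervals overlap, and in the fibre cluster 1.18% and 0.45%. The lower Actc1 share in KO was also present in ambient RNA, at 33.2% and 18.7%. Among essential light chains, the developmental Myl4 made up 50.5% and 45.9% in the Myog state and 22.6% and 10.3% in the stem state.

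Troponin T differed by state and by library. Tnnt1 was the leading form in the stem state, with 71.0% [69.3 to 72.6] in WT and 63.5% [61.0 to 65.9] in KO. Tnnt2, the cardiac and developmental form, made up 11.5% [10.4 to 12.7] and 23.6% [21.5 to 25.8] there, 16.7% [14.6 to 18.9] and 38.5% [36.3 to 40.7] in cycling cells, and 41.9% and 46.6% in the Myog state. Fast Tnnt3 made up 33.6% [30.9 to 36.3] of troponin T in WT cycling cells and 11.4% [10.0 to 12.9] in KO. In the fibre cluster Tnnt3 was 92.9% and 98.9%, while it led in neither the stem nor the Myog state.

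Slow Tnni1 made up 24.0% of troponin I in WT stem cells and 33.3% in KO, 10.9% [7.80 to 14.6] and 36.6% [31.6 to 41.8] in cycling cells, and 60.4% [58.2 to 62.6] and 53.7% [51.6 to 55.9] in the Myog state. KO was above WT in stem and cycling cells and below it in the Myog state. Tnnc1, slow and cardiac troponin C, made up 44.7% [41.9 to 47.4] and 32.4% [30.5 to 34.4] of troponin C in the Myog state. For myosin-binding proteins, Mybpc1 gave 99.5% of the family in WT and 100% in KO stem cells, and Mybph 88.5% and 85.3% in the Myog state.

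**Figure D2:**
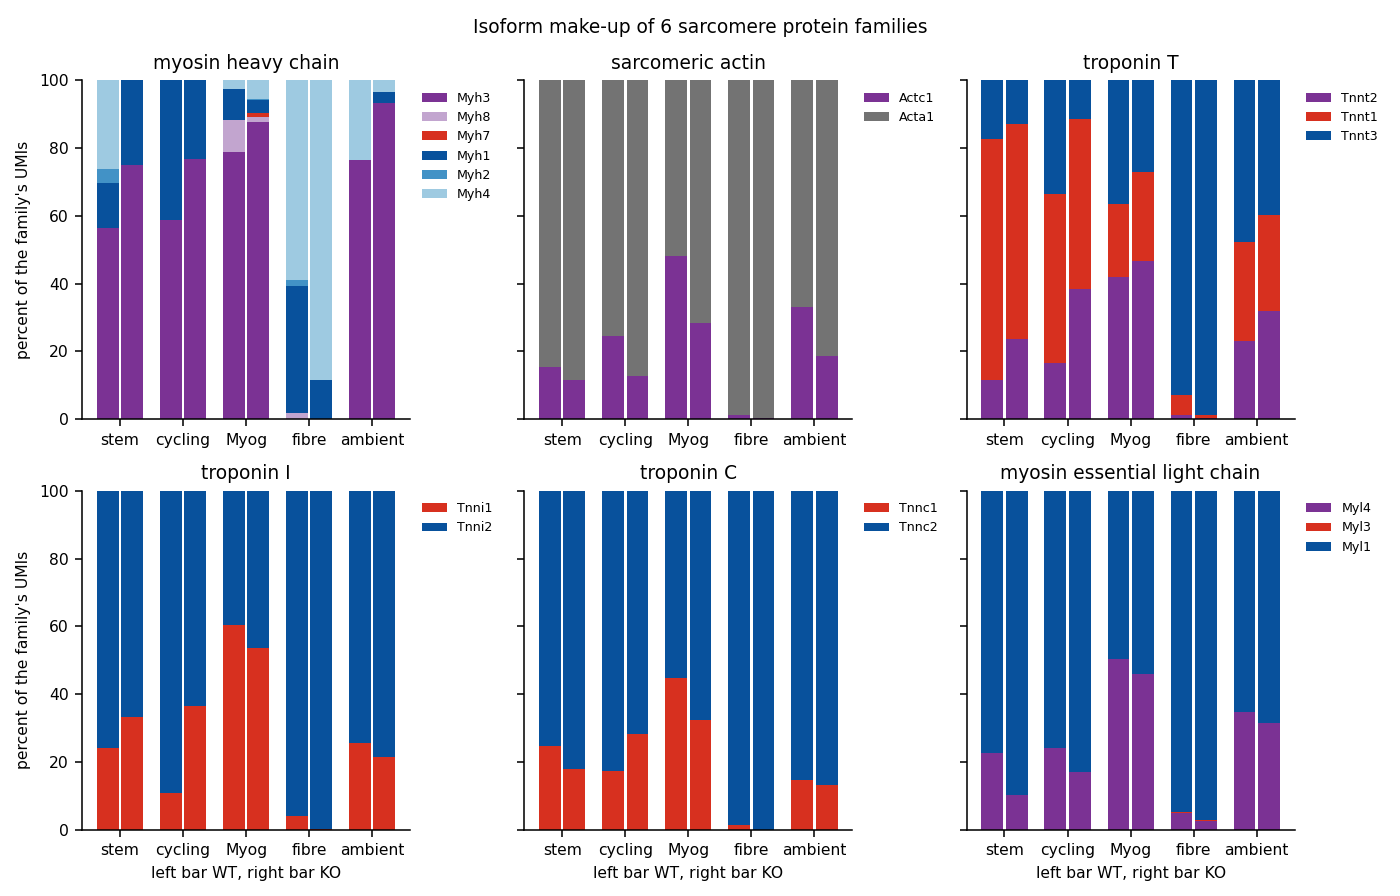
Percent of a family's UMIs from each isoform in 6 families, for the stem, cycling and Myog states, the fibre cluster and ambient RNA, with WT as the left and KO as the right bar of each pair. Purple marks developmental, red slow, blue fast and grey other isoforms. Myh3 fills most of its bars and Tnnt2 is the largest part of its bars in the Myog state, and fast forms fill the fibre bars.

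Between the libraries, most sarcomere genes past the fold were higher in KO in stem and cycling cells and lower in KO in the Myog state. In the stem state 9 of 22 measured genes were at least 1.5-fold higher in KO (Mylpf, Tnnt2, Tnni1, Tnni2, Tnnc1, Tnnc2, Ttn, Neb, Des), beside 4.43% of all genes, and 1 (Myl4) was lower, beside 3.26%. In the cycling state 8 of 20 were higher (Acta1, Actn3, Mylpf, Tnnt2, Tnni1, Tnnc1, Neb, Des), beside 3.72%, and 1 (Tnnt3) lower, beside 4.26%. Of the 30 genes measured in the Myog state none was higher, beside 8.62%, and 11 were lower (Actc1, Actn2, Myh1, Myh8, Myl1, Myl4, Mybph, Tnni1, Tcap, Myoz2, Ckm), beside 6.62%. Median log2 ratios of the measured genes were 0.42, 0.45 and -0.36, and those of all genes 0.05, 0.00 and 0.01. Ratios were above 0 on this scale for 16 of 22 genes in the stem, 13 of 20 in the cycling and 9 of 30 in the Myog state.

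The make-up of a state bears on these counts. Stem-state counts rest on subclusters that the libraries filled differently, as given above: without subcluster 6, 5 of 22 genes were higher and 3 lower, beside 6.17% and 3.52% of all genes. Over the 3 stem subclusters with at least 25 cells of each library 8 of 19 were higher and 1 lower, beside 6.46% and 4.08%. For the Myog state, subcluster 5 alone gave 4 of 21 higher and 3 lower, beside 12% and 7.11%, and subcluster 13 alone 2 of 30 higher and 10 lower, beside 10.5% and 12.2%. When each cell was given a state by its own marker score, the Myog state grew to 142 WT and 122 KO cells and gave 6 of 30 higher (Acta1, Myh4, Tnnt2, Tnnc2, Des, Myom1) and 3 lower (Myh1, Myh8, Tcap), beside 5.14% and 6.54%. Own-score states gave 5 of 21 higher (Tnnt2, Tnnc1, Ttn, Neb, Des) and 2 lower in the stem state, beside 8.78% and 3.28%, and 10 of 20 higher and 1 lower in the cycling state, beside 3.67% and 3.29%. The balance of higher and lower genes in the Myog state thus turned with the way the state was drawn.

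**Figure D3:**
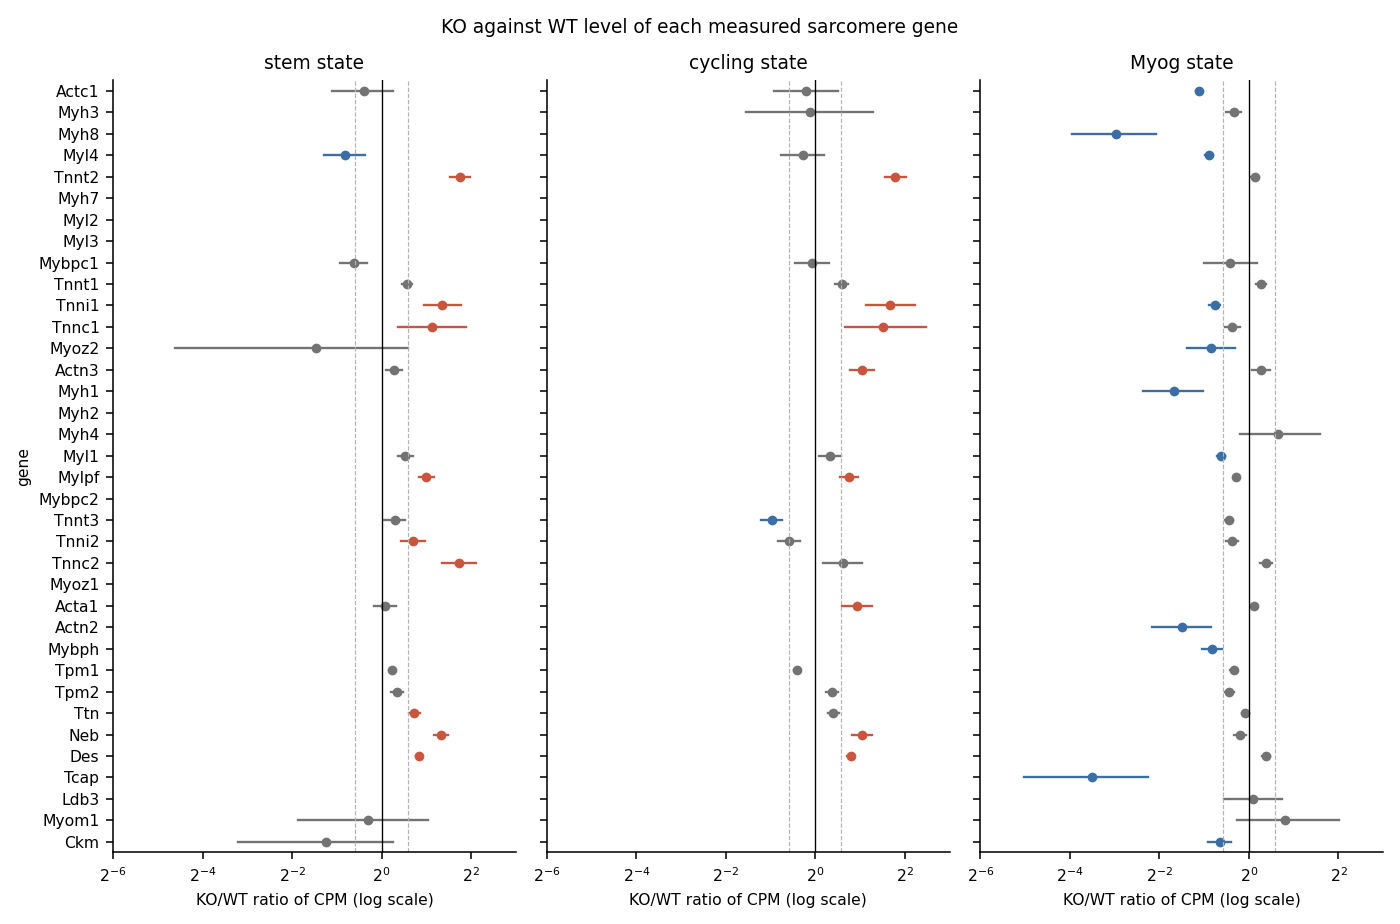
KO/WT ratio of CPM (log scale) of each sarcomere gene measured in the stem, cycling and Myog states, with 95% counting intervals, red where called higher, blue where called lower and grey within 1.5-fold. Dashed lines mark the fold of 1.5. Tnnt2, Tnni1, Neb and Des sit to the right in stem and cycling cells, and Actc1, Myl4 and Tnni1 to the left in the Myog state.

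Among thin filament genes, all 12 were measured in all states. In KO 6 were higher and 0 lower in the stem state, beside 4.43% and 3.26% of all genes. The cycling state had 5 higher and 1 lower, beside 3.72% and 4.26%, and the Myog state 0 higher and 2 lower, beside 8.62% and 6.62%. Tnnt2 was 41.0 CPM (343 UMIs) in WT and 138 CPM (355 UMIs) in KO stem cells, a ratio of 3.37 [2.90 to 3.92], and 56.1 and 193 CPM in cycling cells, a ratio of 3.45 [2.94 to 4.05]. In the Myog state it was 1837 and 2018 CPM, a ratio of 1.10 [1.04 to 1.16]. KO thus stood above WT where Tnnt2 was low, and within 1.5-fold of it where Tnnt2 was high. After each cell was thinned to 5000 UMIs, 10.8% [8.22 to 13.9] of WT and 23.9% [17.2 to 31.8] of KO stem cells held a Tnnt2 UMI, and 16.8% [10.8 to 24.3] and 45.3% [36.7 to 54.0] of cycling cells. Before thinning the shares were 22.3% and 38.0% of stem and 41.98% and 70.1% of cycling cells. In mononuclear phagocytes, which should lack it, the thinned shares were 0.912% and 1.84%. Median UMIs before thinning were 16211 and 17329 in stem, 23659 and 26172 in cycling cells, and 11444 and 12270 in phagocytes.

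Tnni1, the neighbour of Tnnt2 on chromosome 1, was 13.5 CPM in WT and 34.7 CPM in KO stem cells (2.56 [1.92 to 3.42]) and 10.9 and 34.4 CPM in cycling cells (3.16 [2.19 to 4.66]). In the Myog state it was 1076 and 632 CPM, a ratio of 0.587 [0.541 to 0.637]. The Myog-state value was low in KO in both subclusters, at 322 against 204 CPM in subcluster 5 and 1956 against 1308 CPM in subcluster 13. With states drawn by each cell's own score the log2 ratios were 0.30 in the stem state and -0.0039 in the Myog state, neither past the fold. Tnnc1 was 4.78 and 10.5 CPM in stem cells (2.20 [1.30 to 3.67]) and 4.30 and 12.3 CPM in cycling cells (2.87 [1.58 to 5.53]), from 15 to 47 UMIs each, and 515 and 399 CPM in the Myog state. Without the UMIs of its highest cell in each sum, Tnnc1 was not called in stem cells.

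Fast troponins did not follow one direction. Tnnc2 was 14.6 CPM in WT and 48.3 CPM in KO stem cells (3.31 [2.56 to 4.28]), 20.6 and 31.5 CPM in cycling cells and 638 and 830 CPM in the Myog state. Tnni2 was 42.8 and 69.3 CPM in stem cells (1.62 [1.34 to 1.94]) but 89.4 and 59.6 CPM in cycling cells (0.667 [0.559 to 0.793]). Tnnt3, the neighbour of Tnni2, was 62.1 and 75.9 CPM in stem cells and 113 and 57.5 CPM in cycling cells (0.508 [0.429 to 0.601]). The stem-state values of Tnnc2 and Tnni2 were carried by subcluster 6, where Tnnc2 was 4.53 CPM in WT and 103 CPM in KO (3 and 104 UMIs). Without that subcluster their log2 ratios were -0.20 and -0.49 in place of 1.44 and 0.64. Thinned shares of stem cells with a Tnni2 UMI were 18.8% in WT and 18.3% in KO. Without the UMIs of its highest cell in each sum, Tnni2 was within the fold in stem cells (log2 0.49) and called lower in KO cycling cells (log2 -0.65).

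Actins split between the states. Acta1 was 67.2 CPM in WT and 70.5 CPM in KO stem cells (1.05 [0.882 to 1.24]), 32.7 and 61.9 CPM in cycling cells (1.90 [1.51 to 2.39]) and 4165 and 4539 CPM in the Myog state (1.09 [1.05 to 1.13]). Its stem value hid opposite subclusters: 4.53 CPM in WT and 150 CPM in KO in subcluster 6, and 127 and 19.4 CPM in subcluster 7. Actc1 was lower in KO in the Myog state, at 3879 and 1797 CPM (0.463 [0.443 to 0.485]). It was lower in subcluster 5 (2114 and 1198 CPM) and in subcluster 13 (5937 and 2745 CPM) alike, and its log2 ratio was -0.30, within the fold, with states drawn by each cell's own score. In stem and cycling cells it was 12.3 and 9.34 CPM and 10.6 and 9.19 CPM, with intervals that hold 1.

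The tropomyosins were within 1.5-fold in all states. Tpm1 was 666 and 784 CPM in stem cells, 1090.5 and 825 CPM in cycling cells and 2444 and 1925 CPM in the Myog state, with ratios of 1.18, 0.757 and 0.788. Tpm2 was 190 and 241, 207 and 270, and 1516 and 1120 CPM. Tnnt1 was just under the fold in stem and cycling cells, at 253 and 372 CPM (1.47 [1.36 to 1.59]) and 168 and 252 CPM (1.5 [1.35 to 1.67], 0.57 on the log2 scale of CPM + 5), and was 947 and 1144 CPM in the Myog state.

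Among thick filament genes, 4 of 14 were measured in the stem state, 5 in the cycling state and 9 in the Myog state. Mylpf was 91.6 CPM in WT and 183 CPM in KO stem cells (2.0 [1.78 to 2.25]), 88.5 and 150 CPM in cycling cells (1.69 [1.47 to 1.95]) and 5190 and 4237 CPM in the Myog state (0.816 [0.789 to 0.845]). All 3 cycling subclusters had KO above WT. In the stem state KO was above WT in 3 of 7 subclusters with at least 20 UMIs, subcluster 6 held 365 of the 471 KO UMIs, and the log2 ratio without it was -0.45 in place of 0.96.

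The essential light chains were lower in KO in the Myog state, Myl1 (fast) at 1621 and 1047 CPM (0.646 [0.605 to 0.689]) and Myl4 at 1650 and 891 CPM (0.540 [0.505 to 0.578]). Myl1 did not keep this direction in subcluster 5 alone, where it was 208 CPM in WT and 384 CPM in KO, and without its highest cell in each sum its log2 ratio was -0.33, within the fold. Myl4 was lower in KO in both, at 279 and 115 CPM and at 3249 and 2118 CPM, but within the fold (log2 -0.25) with states drawn by each cell's own score. Myl4 was also lower in KO stem cells, at 32.3 and 18.3 CPM (0.567 [0.407 to 0.775], 270 and 47 UMIs), and over all 11 subclusters with at least 20 UMIs it was lower in KO in 10. The lowest of these ratios was 0, with no KO UMI, and some of these subclusters had few KO cells. Thinned shares of stem cells with a Myl4 UMI were 11% and 4.23%, beside 1.71% and 1.78% of phagocytes, and the unthinned shares were 27.0% and 23.2%. At 2000 UMIs per cell the order of these shares turned, and over the 3 stem subclusters shared by the libraries the log2 ratio of Myl4 was -0.49, within the fold.

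Of the myosin heavy chains, Myh3 was 459 CPM in WT and 363 CPM in KO in the Myog state (0.792 [0.704 to 0.890]), within 1.5-fold. Myh8 was 55.1 and 7.07 CPM (61 and 13 UMIs) and Myh1 52.4 and 16.3 CPM (58 and 30 UMIs). Both were called lower, yet 1 WT cell held 44 of the 61 Myh8 UMIs and 5 WT cells 89.7% of the Myh1 UMIs. Without the highest cell of each sum their levels were 15.5 and 4.37 CPM and 33.7 and 13.7 CPM. Mybph was 312 and 177 CPM (0.567 [0.486 to 0.662]) in the Myog state, with 1 WT cell holding 143 of 345 UMIs, and was not called without its highest cells. Mybpc1 was 69.7 and 45.2 CPM in stem cells (0.648 [0.526 to 0.792], -0.57 on the log2 scale of CPM + 5, just inside the fold) and was lower in KO in 10 of 13 subclusters.

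Among Z disc, M band and elastic proteins, Des was higher in KO in every state, though within 1.5-fold in the Myog state. It was 611 CPM in WT and 1087 CPM in KO stem cells (1.78 [1.70 to 1.86]), 614 and 1064 CPM in cycling cells (1.73 [1.64 to 1.83]) and 1227 and 1605 CPM in the Myog state (1.31 [1.23 to 1.40]). KO was above WT in 13 of 13 subclusters, with ratios from 1.05 to 2.4, which held for no other sarcomere gene with at least 20 UMIs in each of them. In 5 of these subclusters KO had 26 cells together, and in subcluster 0 only 1. The thinned shares of cells with a Des UMI were 89.98% and 97.9% in stem and 91.6% and 97.1% in cycling cells, beside 2.71% and 2.78% of phagocytes (unthinned, 99.4% and 99.3%, and 99.2% and 100%).

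Neb, the giant thin-filament ruler anchored at the Z disc, was 84.4 CPM in WT and 212 CPM in KO stem cells (2.51 [2.24 to 2.81]), 71.9 and 147 CPM in cycling cells (2.05 [1.76 to 2.39]) and 713 and 621 CPM in the Myog state (0.871 [0.794 to 0.954]). Thinned shares were 24.9% [21.2 to 29.0] and 46.5% [38.1 to 55.0] of stem cells, 22.9% [16 to 31.1] and 51.1% [42.4 to 59.7] of cycling cells, and 0.313% and 0.351% of phagocytes (unthinned, 53.0% and 67.6% of stem and 63.4% and 81.0% of cycling cells). KO was above WT in 10 of 13 subclusters, but in the Myog state the subclusters were opposite, with 361 and 565 CPM in subcluster 5 and 1124 and 709 CPM in subcluster 13. Ttn (titin, the elastic filament) was 188 and 312 CPM in stem cells (1.66 [1.52 to 1.81]), 264 and 349 CPM in cycling cells (1.32 [1.21 to 1.44]) and 1813 and 1717 CPM in the Myog state. Over the 3 stem subclusters with at least 25 cells of each library its log2 ratio was 0.17 in place of 0.72, and it was not called.

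Actn3, the alpha-actinin of fast fibres, was 116 and 141 CPM in stem cells (1.22 [1.08 to 1.38]), 47.3 and 97.6 CPM in cycling cells (2.07 [1.72 to 2.50]) and 252 and 304 CPM in the Myog state. Actn2, its counterpart in all fibre types, was measured only in the Myog state, at 50.6 and 18.0 CPM (56 and 33 UMIs, 0.355 [0.223 to 0.555]). Ckm, which regenerates ATP at the M band, was 232 and 147 CPM (0.635 [0.533 to 0.756]), with 90.3% of WT and 82.7% of KO UMIs in 5 cells each, and Myoz2, the slow calsarcin, 56.9 and 31.6 CPM (0.554 [0.381 to 0.805]). Tcap, the titin cap, was 37.1 and 3.26 CPM, but 36 of its 41 WT UMIs came from 1 cell, and without the highest cells 5 and 1 UMIs were left. Ldb3, a Z disc adaptor, was 29.8 and 31.6 CPM, and Myom1, an M band linker, 9.04 and 15.8 CPM (10 and 29 UMIs).

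The Myog state had 2 parts. Subcluster 5 (29 WT and 44 KO cells), led by Myog, Mymx and Cck, had 1.11% and 1.13% of its UMIs in sarcomere genes, and subcluster 13 (14 and 19 cells) had 5.88% and 5.28%, at median depths of 17636 and 23153 and of 33988 and 39565 UMIs. Tnnc1, Acta1, Tnnc2 and Myh3 led subcluster 13 although they had no part in its clustering. Developmental isoforms made up 31.9% of sarcomere UMIs in WT and 21.8% in KO in subcluster 5, and 22% and 17.4% in subcluster 13. Both parts had the lower developmental share in KO, and Actc1 and Myl4 were both lower in KO in each.

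Within the stem state, cells were also split by whether a Myog UMI was seen after thinning to 5000 UMIs. At that depth 5.52% of WT and 14.8% of KO stem cells showed one. The split does not match the libraries in stage, since a cell may hold Myog RNA and show no Myog UMI. Among cells without one, 462 in WT and 121 in KO, Des was 570 CPM [540 to 602] and 950 CPM [874 to 1031], Neb 71.9 CPM [61.3 to 83.7] and 170 CPM [139 to 206], and Tnnt2 30.3 CPM [23.6 to 38.3] and 84.3 CPM [62.8 to 111]. In cycling cells without a Myog UMI (114 and 103), Des was 563 and 1062 CPM, Neb 56.1 and 132 CPM and Tnnt2 57.9 and 196 CPM. In both states these 3 were higher in KO in cells without a Myog UMI, with intervals that did not overlap, and so were Mylpf in stem cells (76.2 and 117 CPM) and Tnni1 in cycling cells (5.26 and 33.01 CPM). Intervals overlapped in stem cells for Ttn (159 and 209.9 CPM), Tnni1 (13.4 and 26.4 CPM), Tnnc1 (5.63 and 11.6 CPM), Tnnc2 (18.2 and 26.4 CPM) and Tnni2 (44.6 and 46.3 CPM). They overlapped in cycling cells for Actn3, Mylpf, Tnnc1 and Acta1, the last at 31.6 and 25.2 CPM. Without overlap, Myl4 was lower in KO stem cells (28.1 and 6.61 CPM) and Tnnt3 in KO cycling cells (100 and 48.5 CPM).

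Summed markers of some other cell types are given here. The 14 fibre markers outside the set summed to 227 CPM in WT and 362 CPM in KO stem cells, 318 and 430 CPM in cycling cells and 1412 and 1427 CPM in the Myog state, beside 113 and 140 CPM in ambient RNA. In stem cells 13 of the 14 had a UMI in WT and 11 in KO. The glycolytic enzyme Eno3 gave most of the sum there (131 and 251 CPM), followed by the calcium pump Atp2a1 (36.8 and 35.0 CPM), the calcium release channel Ryr1 (26.4 and 29.2 CPM), and the glycolytic enzyme Pgam2 (11.1 and 24.1 CPM). Cacna1s, the calcium channel of the fibre membrane, had 0 UMIs in stem and cycling cells, but only 1 ambient UMI in each library. The part of these markers in the stem and cycling results was not tested. Erythroid markers summed to 36.1 CPM in WT and 1872 CPM in KO cycling cells, where 1 KO cell held 7053 of 7133 such UMIs. Without it, 8 of 19 genes were higher and 1 lower, beside 3.75% and 4.2% of all genes. The 11 mural markers, of which the smooth muscle actin Acta2 gave the most, summed to 862 and 1069 CPM in stem, 651 and 1066 CPM in cycling and 3224 and 3509 CPM in Myog-state cells. The 12 fibroblast markers summed to 1649 and 1571 CPM, 1038 and 1121 CPM, and 362 and 552 CPM, and the 9 tenocyte markers to 48.2 and 91.1 CPM, 45.0 and 68.2 CPM, and 229.6 and 337 CPM. Their part in the results was not tested.

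Beyond the set, lists of related muscle genes were chosen with earlier results of these data known. In the Myog state 3 of 17 measured genes of excitation-contraction coupling were lower in KO and none higher, and 5 of 26 of sarcomere assembly and turnover were lower and 2 higher, beside 6.62% of all genes lower and 8.62% higher. Median log2 ratios were -0.25 and -0.19. Sln, which tunes the calcium pump, was 78.6 and 24.5 CPM, Trdn, of the junctional complex, 66.0 and 23.9 CPM, Csrp3, a Z disc mechanosensor, 90.4 and 26.7 CPM, and Trim63, a ubiquitin ligase of thick filament proteins, 36.2 and 9.25 CPM. Fhl1 and Pdlim5 were higher, at 7.23 and 22.9 CPM and at 51.5 and 93.6 CPM. Adult fibre metabolism had 1 of 11 higher (Cox7a1, 18.1 and 49.0 CPM) and 3 lower, with Cox6a2 at 76.8 and 35.4 CPM and Pygm at 34.3 and 17.4 CPM.

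Myogenic regulators in that state had 1 of 14 higher (Myf5, 11.8 and 22.3 CPM) and 1 lower (Cdkn1c, 7161 and 3485 CPM), and Myog itself was 4489 and 3097 CPM (0.690 [0.664 to 0.717]). Smooth muscle contractile genes had 3 of 6 higher in KO, a median of 0.91 on the log2 scale, and none lower. Tagln was 38.9 and 260.1 CPM (6.69 [4.89 to 9.37]) and Myl9 65.1 and 294 CPM (4.52 [3.53 to 5.86]), while Acta2 was 3163 and 3204 CPM. In the stem state, where 4.43% of all genes were higher and 3.26% lower, 4 of 10 measured fibre metabolism genes were higher, and none of 11 genes of excitation-contraction coupling was called, with median log2 ratios of 0.36 and 0.27. Also in the stem state, 4 of 14 myogenic regulators were higher and 2 lower, 3 of 17 assembly genes were higher and none lower, and none of 6 smooth muscle genes was called. The cycling state, with 3.72% of all genes higher and 4.26% lower, had 2 of 6 smooth muscle genes higher (median 0.48) and none lower. In it 2 of 14 regulators were higher and 2 lower, and 3 of 15 assembly genes, 1 of 10 coupling genes and 1 of 8 metabolism genes were higher and none lower.

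In other cell types, sarcomere genes were low but many of them stood above a limit set for ambient RNA (free RNA caught in droplets without a cell). Ambient RNA was taken from 23470 WT and 29478 KO barcodes with 20 to 100 UMIs. Sarcomere genes made up 0.175% and 0.208% of ambient UMIs. Over genes with at least 20 ambient UMIs (19 in WT and 20 in KO), the median of class level over ambient level was 0.0833 in WT and 0.119 in KO phagocytes, 0.0401 and 0.0380 in endothelial cells, and 0.0510 and 0.0541 in fibroblasts. These ratios are to pure ambient RNA, of which a cell holds a small part. Taking ambient RNA to enter all genes alike, the marker gene lowest against it limits that part to 0.0213 of the pure level in WT and 0.0175 in KO phagocytes, 0.0110 and 0.0258 in fibroblasts, and 0.0131 and 0.0171 in endothelial cells. With at least 20 UMIs and at least 2 times that limit stood 23 of 36 genes in phagocytes of each library, 18 and 12 in fibroblasts, and 8 and 9 in endothelial cells. Larger classes meet the minimum of 20 UMIs more easily, with 44490125 UMIs in WT phagocytes and 7133589 in WT endothelial cells. The share of all genes past this rule was not computed, so these counts do not rank the classes. Summed fibre markers outside the set were above these limits too. Against pure ambient RNA they stood at 0.206 and 0.230 in phagocytes, 0.118 and 0.0927 in fibroblasts, and 0.0657 and 0.0844 in endothelial cells. The source of this RNA was not tested. In stem cells the median ratio to pure ambient RNA was 0.825 and 1.02 beside limits of 0.00643 and 0.00986. There 21 WT and 19 KO genes stood at least 2 times above them, which were all genes with at least 20 UMIs. The Myog state had medians of 20.8 and 17.4 beside limits of 0 and 0.00551, and 28 such genes in each library. At such limits these counts follow the UMI minimum and are no test against ambient RNA. In ambient RNA Des was 142 CPM in WT and 150 CPM in KO, Neb 29.8 and 35.7 CPM, Tnni1 23.0 and 18.9 CPM, and Tnnt2 36.6 and 64.7 CPM (1.77 [1.22 to 2.6]). Of these 4, Tnnt2 alone had an interval above 1. With the expected ambient UMIs subtracted, the counts of genes called in each state were the same (9 and 1, 8 and 1, 0 and 11). The limits leave little to subtract, for Tnnt2 at most 0.235 CPM in WT and 0.638 CPM in KO stem cells. A subtraction within them could hardly change the calls.

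Among 3510 WT and 3423 KO phagocytes, 25.4% and 19.5% held no sarcomere UMI, and 3 cells in each library had at least 1% of UMIs from these genes. The 10 highest cells held 19.9% and 21.8% of the class's sarcomere UMIs. A small number of cells thus held much of it.

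Mural cells, the pericytes and smooth muscle of vessels (71 in WT and 102 in KO), expressed some members well above ambient RNA. The set summed to 7921 and 6680 CPM there, above the 2685 and 4024 CPM of stem cells. Tpm1 was 4125 and 3354 CPM (10.5 and 6.59 times ambient), Tpm2 3154 and 2734 CPM (28.1 and 11.6 times) and Des 358 and 352 CPM (2.52 and 2.34 times). Tcap was 89.6 and 19.3 CPM, Myom1 92.1 and 65.6 CPM and Ldb3 21.8 and 17.8 CPM, from 11 or fewer ambient UMIs each. Actn2 had 0 and 1 UMIs there. Fibroblasts held Tpm1 at 439 and 767 CPM and Tpm2 at 226 and 516 CPM (2.02 and 2.20 times ambient). Dendritic cells held Tnni2 at 110 and 93.7 CPM (1.65 and 1.36 times). Tpm1 and Tpm2 were also above ambient RNA in both mural cells and fibroblasts of each library.

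**Figure D4:**
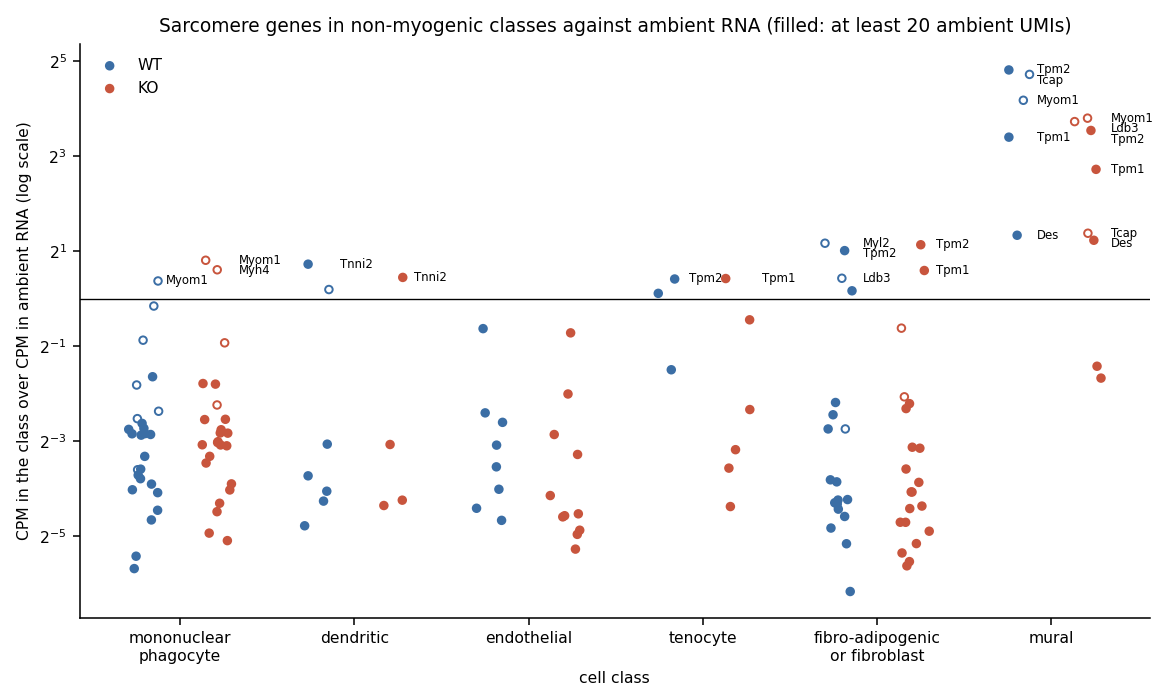
CPM of sarcomere genes in 6 non-myogenic classes over their CPM in ambient RNA (log scale), for genes with at least 20 UMIs in the class and at least 1 in ambient RNA, filled where ambient RNA gave at least 20 UMIs. The line at 1 is pure ambient RNA, not what it could give a cell. Most points lie below it, and Tpm1, Tpm2, Des, Tcap and Myom1 in mural cells lie above it in both libraries.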

How the data were processed

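The deposited matrices of 1 WT and 1 KO library give whole-number UMI counts by gene for every barcode, as their values show. STARsolo 2.7.9a, STAR 2.7.8a, Seurat 4.0.1 and build GRCm38 are named per the submitters' processing notes. No annotation release or counting setting is named there. The members and gene lists were chosen with earlier results of these data known. Every member was open to naming, and in each of 5 other lists the 2 highest and 2 lowest KO/WT ratios in the Myog state among genes with at least 50 UMIs. Genes named as checks of cells or states were also allowed.

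Barcodes were kept as cells above a UMI minimum per library, set at percentile 99 of the 3000 largest barcodes over 10, with at least 500 UMIs, at least 300 genes and at most 10% mitochondrial UMIs. No cell was below the thinning depth of 5000 UMIs. As doublets, the barcodes with the highest Scrublet scores were removed at 0.8% per 1000 barcodes (356 WT and 290 KO), since Scrublet marked none by its own threshold. Cells were clustered in scanpy 1.11.5 with Leiden (leidenalg 0.10.2) from 2000 variable genes, 30 components and 15 neighbours, and named from marker lists. The 36 genes could take part in this clustering of all cells. They were left out only when myogenic-like cells were subclustered. Myogenic subclusters took the state of their highest marker score. UMIs were summed per state and library. Intervals at 95% are exact Poisson for CPM, Clopper-Pearson for shares and conditional binomial for ratios, all for counting error only; UMI counts of 1 library give no spread between animals. Log2 ratios used CPM + 5. A count of 0 was read as allowing up to 3 UMIs. The code was tested on simulated data.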

Additional observations from a re-analysis of the deposited data

Results flagged for a closer look

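Tnni1, slow troponin I, was the 1 sarcomere gene called in opposite directions in different states. Its KO/WT ratio of CPM was 2.56 in the stem state, 3.16 in the cycling state and 0.587 in the Myog state, and its KO level lay above WT in all 3 cycling subclusters and below it in both Myog subclusters. The difference between the states was not tested, since each group has 1 library, and with states drawn from each cell's own marker score Tnni1 was past the fold in neither the stem state (log2 0.30) nor the Myog state (log2 -0.0039).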

How the results depend on the processing

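Results were recomputed under 16 alternatives and 6 more chosen after seeing the data. No paired analysis was possible because each group has 1 library. Of the counts of genes past the fold and the ambient ratios, 103 values stayed within 1.5 times of the main value and 29 moved. Settings such as a fold of 2 or a pseudocount of 1 CPM have no share of all genes here. Their counts below therefore stand without a background, and whether all genes changed alike was not tested.

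The count higher in KO in the stem state (9) was 5 with states from each cell's own marker score (beside 8.78% of all genes), 4 at a fold of 2 and 5 without subcluster 6 (beside 6.17%). The count lower there (1) was 0 with the higher UMI minimum in both libraries and at a fold of 2. It was 2 with doublets kept, by own marker score (beside 3.28%) and with scaling to the median gene ratio. Totals without members, mitochondrial and ribosomal protein genes also gave 2, as did leaving out the UMIs of each member's own highest cell. The count was 3 without subcluster 6 (beside 3.52%) and 4 at a pseudocount of 1 CPM. In the cycling state the count higher (8) was 2 at a fold of 2. The count lower (1) was then 0, and 2 without the cell with the most member UMIs or without each member's own highest cell.

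In the Myog state the count higher (0) was 2 with doublets kept and with states from clusters built with the members. It was also 2 at a pseudocount of 1 CPM, with at least 1 UMI in place of 20, and in subcluster 13 alone (beside 10.5% of all genes). It was 1 with the reduced totals and without each member's own highest cell. Subcluster 5 alone gave 4 (beside 12%) and own marker score 6 (beside 5.14%). The count lower (11) was 3 by own marker score (beside 6.54%), 5 at a fold of 2 and 3 in subcluster 5 alone (beside 7.11%). In WT, genes higher in the Myog than the stem state (29) were 17 with subcluster 5 alone (beside 12.2%).

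For single genes called in a state, 406 values stayed within their intervals, 71 moved and 11 turned. Log2 ratios in the stem state turned by own marker score for Mylpf (-0.26) and Tnni2 (-0.39), and without subcluster 6 for Mylpf (-0.45), Tnni2 (-0.49) and Tnnc2 (-0.20). In the Myog state Myl1 (0.87) and Mybph (0.13) turned in subcluster 5 alone. Log2 ratios of shares of cells with a UMI turned for Myl4 (0.34) and Tnnc1 (-0.80) in stem and Tnnc1 (-0.065) in cycling cells at 2000 UMIs, and for Actn3 (-0.065) in cycling cells at 1000 UMIs. The causes were not tested. Depth limits the Myog state most, with 43 WT and 63 KO cells, and genes under 20 UMIs have no call.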
